A study of Mus musculus with 8 samples.

Results

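The mural cells of blood vessels, pericytes on capillaries and smooth-muscle cells on larger vessels, were followed here through 9 of their marker genes, together with Pdgfb, the endothelial ligand that attracts them. The genes were chosen by name: Pdgfb, Pdgfrb, Rgs5, Cspg4, Acta2, Des, Tagln, Myh11, Kcnj8 and Abcc9. All 10 were found among the 20057 genes of the table, and all 10 passed the limit on low values, a mean above 10 normalized reads in at least 1 group. The RNA came from B16-F10 melanomas, grown from 250000 cells placed under the skin of male C57BL/6 mice of 8 weeks. On days 13 and 16 the tumor surroundings were injected, 2 times in all, with 30 µg of either the agonistic CD40 mAb FGK4.5 (4 tumors, from mice 5N, 6L, 6R and 10N) or the rat IgG2a isotype control 2A3 (4 tumors, from mice 5L, 7N, 8N and 9L). No genetic change of the mice is named for either group. The methods name harvests 1 and 4 days after the last injection for sorted tumors, and the labels do not say which applied. Harvest day may therefore differ between libraries. About 100000 live cells per tumor that lacked the leukocyte marker CD45 and carried the endothelial marker CD31 were sorted, so no mural marker took part in the gate, and each tumor gave 1 library. Such a gate should leave out mural cells without CD31, and how mural-cell RNA came to be in the sorted fraction was not tested.

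Endothelial cells of growing vessels secrete the PDGF-B chain, which is held near the vessel wall by heparan sulfate. Mural cells carry its receptor, PDGFR-β, and follow the ligand onto the new vessel, where they share a basement membrane with the endothelium. In tumors this coat is often loose and irregular, and its cells carry pericyte and contractile markers in varying proportion. The comparison asks whether CD40-stimulating immunotherapy was accompanied by another level of the ligand, of its receptor or of the mural-cell genes in the sorted fraction.

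Values are normalized reads, the gene's reads divided by a size factor per library. The libraries held between 2971689 reads on genes (5L) and 64938728 (5N), so that a single read counted for 0.118 normalized reads in the deepest and 2.44 in the shallowest. The 3 libraries with the fewest reads, 5L, 7N and 8N, all had isotype control. The smallest value of a mural-cell gene, that of Des in 5L, rests on 68 reads. Endothelial identity was present in every library: the summed level of 15 endothelial markers lay between 52744 and 86281 normalized reads. Markers of other cells differed widely. Library 5L, with isotype control, stood apart with the most melanoma and the least fibroblast marker signal. It was also the lowest isotype control library for each of the 9 mural-cell genes, so leaving it out must lower their fold changes. The fold changes of the 10 genes and of each list are given with and without 5L, which was picked out by its values. The 17 fibroblast markers summed to between 104230 and 280803 normalized reads and the 12 melanoma markers to between 38232 and 101078, and no marker of either list was at 0 in all libraries. Of 20 leukocyte and macrophage markers, 5 were under the limit on low values, Ptprc, Cd3e, Cd3d, Cd8a and Nkg7, and Cd3d was at 0 in all 8 libraries. Among 15 skeletal-muscle markers, which were listed because skeletal muscle also makes desmin, none passed this limit and none exceeded 17.99 normalized reads in any library.

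All 9 mural-cell genes were expressed in the CD31+ fraction, and Acta2 and Rgs5 lay between the endothelial genes Pecam1 and Cdh5 in mean level. Levels of different genes were compared as normalized reads per kilobase of merged exons. Acta2 had 2330.1 ± 961 per kilobase (SD over 8 libraries) and Rgs5 2316 ± 886, beside 1592 ± 294 for Pecam1, which encodes CD31 itself, and 2741 ± 379 for Cdh5, which encodes VE-cadherin. Tagln followed with 924 ± 409, Pdgfrb with 616 ± 195, Pdgfb with 524 ± 102, Abcc9 with 339 ± 113 and Kcnj8 with 291 ± 113. Myh11 (111 ± 42.5), Des (98.2 ± 34.4) and Cspg4 (85.9 ± 23.6) were lowest. Neighbors in this order were often not separated: Acta2 lay above Rgs5 in 6 of 8 libraries, Pdgfrb above Pdgfb in 5, Abcc9 above Kcnj8 in 6, Myh11 above Des in 5 and Des above Cspg4 in 5. Rgs5 lay above Tagln, and Kcnj8 above Myh11, in all 8. With the length of the longest transcript in place of merged exons, Rgs5 came before Acta2, Pdgfb before Pdgfrb and Cspg4 before Des.

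**Figure D1:**
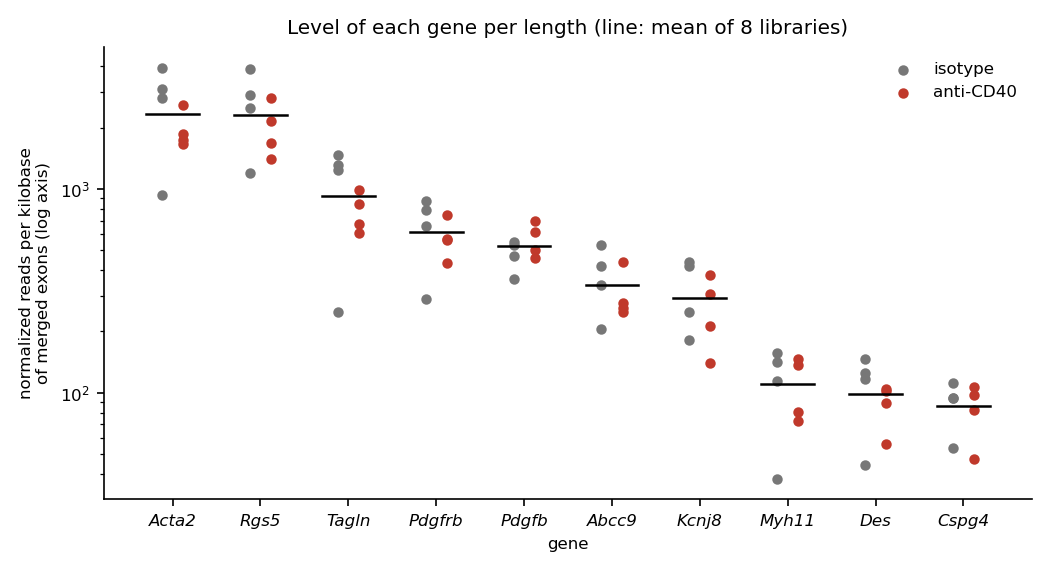
Normalized reads per kilobase of merged exons (log axis) of the 10 genes, ordered by their mean over 8 libraries (black line), with 1 point per library, isotype control in gray and agonistic CD40 mAb in red. Acta2 and Rgs5, near 2330.1 and 2316, lie above the other genes, and the lowest gray point of most genes is library 5L.

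Pdgfb, the ligand, was the steadiest of the 10 genes over all 8 libraries, with a 1.92-fold range, and its small difference between the groups did not pass the test. Over the isotype control libraries without 5L it had a 1.51-fold range, where the 9 mural-cell genes had a median of 1.37. The Pdgfb gene spans bases 79995874 to 80014977 of chromosome 15, minus strand (mm10). Its values were 1915 (5N), 2899.7 (6L), 2097 (6R) and 2569 (10N) normalized reads with agonistic CD40 mAb and 1945 (5L), 1513 (7N), 2208 (8N) and 2291 (9L) with isotype control. The libraries 6L and 10N were above all isotype control libraries, 7N was below all others, and the groups overlapped. The group means were 2370.1 ± 448 and 1989 ± 349.9 normalized reads (SD, n = 4 each), a ratio of 1.19. The log2 fold change on the log2(value + 1) scale was 0.25 (standard error 0.17, 95% interval −0.13 to 0.63, limma adjusted p = 1.00 over 12969 genes). The exact two-sided permutation test gave p = 0.286, where 0.0286 is the smallest p that 4 against 4 libraries allow. The difference did not exceed the spread between libraries, although it was above 0 in all 8 fits that each left out 1 library, at 0.13 to 0.35.

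Pdgfrb, the receptor tyrosine kinase for PDGF-B on mural cells, varied more. Its gene spans bases 61045150 to 61085061 of chromosome 18, plus strand. It had 2368 (5N), 4106 (6L), 3083 (6R) and 3104 (10N) normalized reads with agonistic CD40 mAb and 1581 (5L), 4810.5 (7N), 4339.6 (8N) and 3589.8 (9L) with isotype control. The isotype control group thus held the lowest and the highest library, which bracket all 4 libraries of the other group. The means were 3165 ± 714 and 3580.3 ± 1424 (SD, n = 4 each), and the log2 fold change was −0.09 (standard error 0.31, 95% interval −0.78 to 0.60, limma adjusted p = 1.00). In these bulk libraries fewer mural cells, less RNA per mural cell and less of this RNA from other cells cannot be told apart. The same holds for any result below. The ratio of Pdgfb to Pdgfrb in the same library lay between 0.680 and 0.828 with agonistic CD40 mAb and between 0.315 (7N) and 1.23 (5L) with isotype control. Its means, 0.756 ± 0.0733 and 0.673 ± 0.395 (SD, n = 4 each), did not differ beyond that spread (exact permutation test on the log2 ratio, p = 0.514). Apart from 5L, the isotype control libraries had 0.315 (7N), 0.509 (8N) and 0.638 (9L), all below every library with agonistic CD40 mAb. The ratio was not tested without 5L.

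Rgs5, Cspg4, Kcnj8 and Abcc9 are the pericyte genes of the list. Rgs5 lies on chromosome 1 (169655501 to 169695813) and Cspg4 on chromosome 9 (56865033 to 56899870), both on the plus strand. Rgs5, a GTPase-activating regulator of G-protein signaling and a standard marker of pericytes, reached 6391 (5N), 12759 (6L), 9866 (6R) and 7662 (10N) normalized reads with agonistic CD40 mAb and 5469 (5L), 17579 (7N), 11362 (8N) and 13153 (9L) with isotype control. Library 5L was the lowest of all and 7N the highest, and the groups overlapped. The means were 9169 ± 2791 and 11891 ± 5015 (SD, n = 4 each), a ratio of 0.771 and a log2 fold change of −0.31 (standard error 0.33). Cspg4 encodes the proteoglycan NG2, which pericytes share with many melanomas. It had 566 (5N), 1271 (6L), 984 (6R) and 1163 (10N) normalized reads against 638 (5L), 1121 (7N), 1333 (8N) and 1124 (9L), with the lowest library of each group well apart from the other 3. Its means, 996 ± 310.4 and 1054 ± 294 (SD, n = 4 each), were the closest of the pericyte genes, and its log2 fold change was −0.09 (standard error 0.28).

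Kcnj8 and Abcc9 encode the pore (Kir6.1) and the sulfonylurea receptor (SUR2) of the ATP-sensitive potassium channel of vascular mural cells. They are neighbors on chromosome 6, minus strand, at 142564837 to 142571614 and 142587862 to 142702315, with 16248 bases between them. Kcnj8 had 355 (5N), 970.1 (6L), 544 (6R) and 779 (10N) normalized reads with agonistic CD40 mAb and 464 (5L), 1118 (7N), 1069.9 (8N) and 633 (9L) with isotype control. It is 1 of the 2 mural-cell genes, with Cspg4, whose lowest library was 5N and not 5L. Abcc9 had 2076 (5N), 3676 (6L), 2177 (6R) and 2309 (10N) against 1720.4 (5L), 4437 (7N), 3498 (8N) and 2825 (9L). Library 6L stood apart from the other 3 of its group. The ratio of Kcnj8 to Abcc9 within a library was 0.256 ± 0.0681 and 0.263 ± 0.0342 (SD, n = 4 each; exact permutation test, p = 0.800). Their log2 fold changes were −0.32 (Kcnj8, standard error 0.34) and −0.24 (Abcc9, standard error 0.28). A stretch of Abcc9 exons overlaps 5330439B14Rik on the opposite strand, and 1.95% of its 50-base windows occur in transcripts of other genes.

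Acta2, Tagln and Myh11 belong to the contractile apparatus of smooth muscle, and Des encodes desmin, the intermediate filament of muscle and pericytes. Acta2, smooth-muscle α-actin, spans bases 34241090 to 34255590 of chromosome 19, minus strand. It had 4088 (5N), 3659 (6L), 5669 (6R) and 3806 (10N) normalized reads with agonistic CD40 mAb, and 2058 (5L), 8672 (7N), 6179 (8N) and 6805 (9L) with isotype control. In the isotype control group 3 libraries were above every agonistic CD40 mAb library, and 5L was below every one. The means were 4306 ± 927 and 5928 ± 2789 (SD, n = 4 each), a ratio of 0.726 and a log2 fold change of −0.30 (standard error 0.37, limma adjusted p = 1.00). Of its 50-base windows, 0.326% also occur in transcripts of other genes.

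Tagln, which encodes the actin-binding protein SM22α (chromosome 9, 45929619 to 45936058, minus strand), had 1213 (5N), 1684 (6L), 1961 (6R) and 1345 (10N) normalized reads against 496 (5L), 2907 (7N), 2464 (8N) and 2620.3 (9L). As for Acta2, 3 isotype control libraries were above all those with agonistic CD40 mAb and 5L was below them. Its 5.86-fold range over the isotype control libraries was the widest of the 10 genes, but without 5L it was 1.18-fold, the narrowest of the 10. The log2 fold change of Tagln, −0.20, had a standard error of 0.48. Of its 50-base windows 58.3% also occur, on the opposite strand, in Gm48529 or Pcsk7, and the library kit does not mark strand, so its value is uncertain. Pcsk7 itself stayed between 457 and 619 normalized reads. Des had 209.7 (5N), 383 (6L), 392.3 (6R) and 334 (10N) against 166 (5L), 549.6 (7N), 441 (8N) and 472 (9L), again with 3 isotype control libraries above the other group and 5L below it, and its log2 fold change was −0.21 (standard error 0.35). Myh11, smooth-muscle myosin heavy chain, had 551 (5N), 1111 (6L), 1044 (6R) and 613 (10N) against 288 (5L), 1187 (7N), 866 (8N) and 1073 (9L). For this gene 6L and 6R lay within the range of the upper 3 isotype control libraries. Its means were 829.8 ± 288 and 853 ± 399.5 (SD, n = 4 each), and its log2 fold change of 0.08 (standard error 0.41) was the only one above 0 among the mural-cell genes, although the ratio of its group means was 0.972, so its sign depends on the scale.

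**Figure D2:**
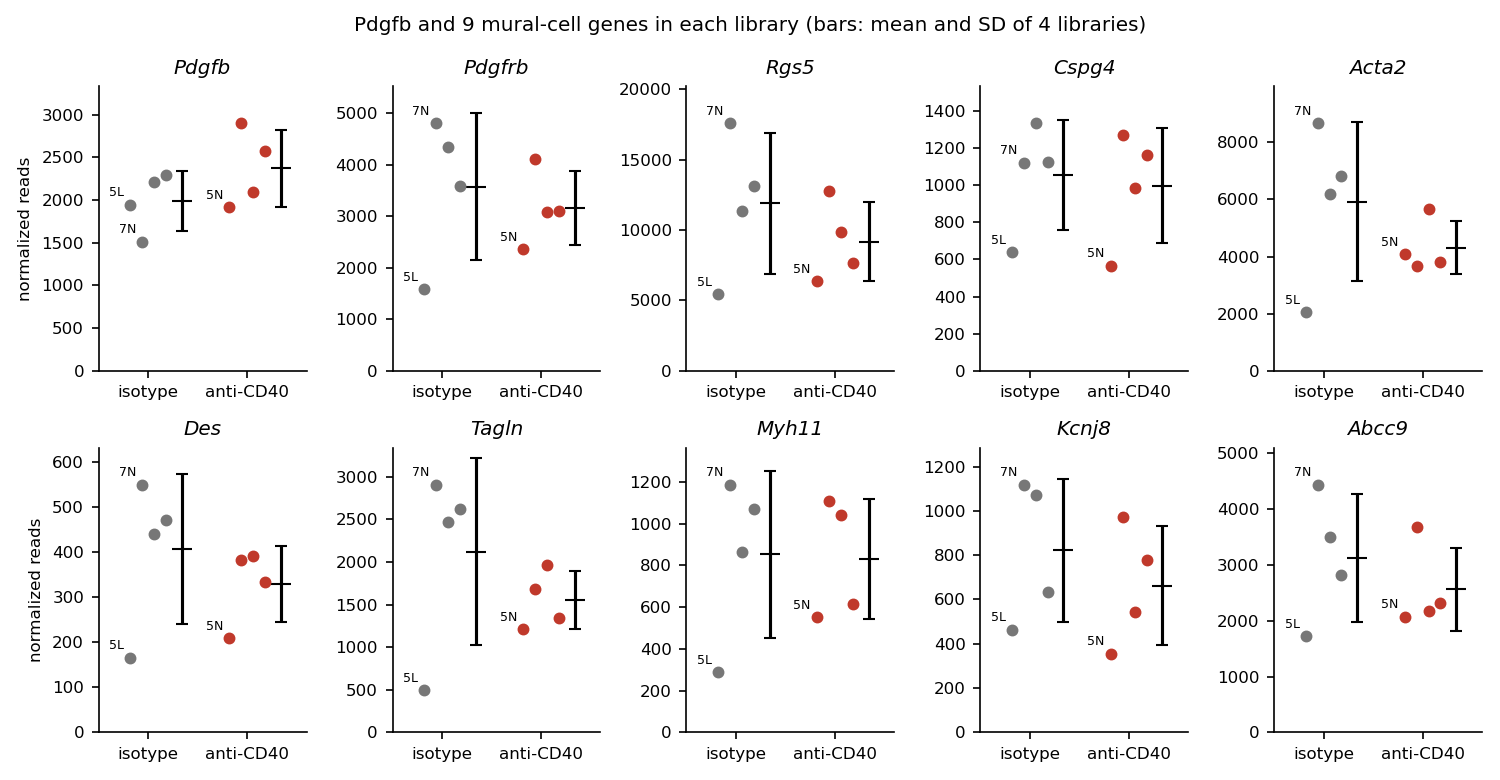
Normalized reads of each gene in each library, isotype control in gray and agonistic CD40 mAb in red, with the mean and SD of 4 libraries as black bars and libraries 5L, 7N and 5N marked. The groups overlap for all 10 genes, and 5L is the lowest point of the gray group except for Pdgfb.

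The study called a gene when its expression differed 1.5-fold or more and its unadjusted p, from an analysis of variance, did not exceed 0.05. With the same limits on the ratio of group means and on the limma p, none of the 10 genes was higher and none was lower with agonistic CD40 mAb. Of all genes tested, 1.28% were higher and 0.239% were lower. The lowest unadjusted limma p of the 10 was that of Pdgfb, all 10 adjusted p were 1.00, and no p was at or under 0.05 for any of them under edgeR or DESeq2 either. The log2 fold changes of the 9 mural-cell genes had a median of −0.21, against 0.00 for all genes tested, and 8 of the 9 were below 0, against 48.7% of all genes tested. As these 9 genes rise and fall together in the same libraries, they are not 9 separate observations. Their standard errors, 0.28 to 0.48, leave 95% intervals as wide as −1.25 to 0.86 (Tagln), and the lower ends of the 9 intervals lie between −1.25 and −0.71.

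With 5L included, the libraries differed from each other far more than the groups did. The 9 mural-cell genes had a median coefficient of variation of 41.0% over the isotype control libraries and 29.3% over those with agonistic CD40 mAb. For all genes tested these were 21.0% and 14.9%. The isotype control spread rested largely on 5L, as the median fold range of the 9 genes was 3.21 with it and 1.37 without it. That range was 1.87 over the agonistic CD40 mAb libraries. Without 5L the median ratio of the group means was 0.704. Library 5L was the lowest of all 8 for 7 of the 9 genes, and its values were between 24.5% (Tagln) and 59.4% (Kcnj8) of the mean of the other 7 libraries. Library 7N was the highest for 8 of the 9, at 149.8% (Myh11) to 188% (Acta2) of the mean of the other 7, and for Cspg4, where 8N was the highest, it was at 111%. Library 5N was below the mean for all 9 and the lowest for Cspg4 and Kcnj8. For Pdgfb the order was another one, with 6L highest and 7N lowest, while 5L was at 87.9% of the mean of the other 7. Libraries 5L and 7N, at opposite ends for the mural-cell genes, are the 2 shallowest, with 2971689 and 3446781 reads.

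**Figure D3:**
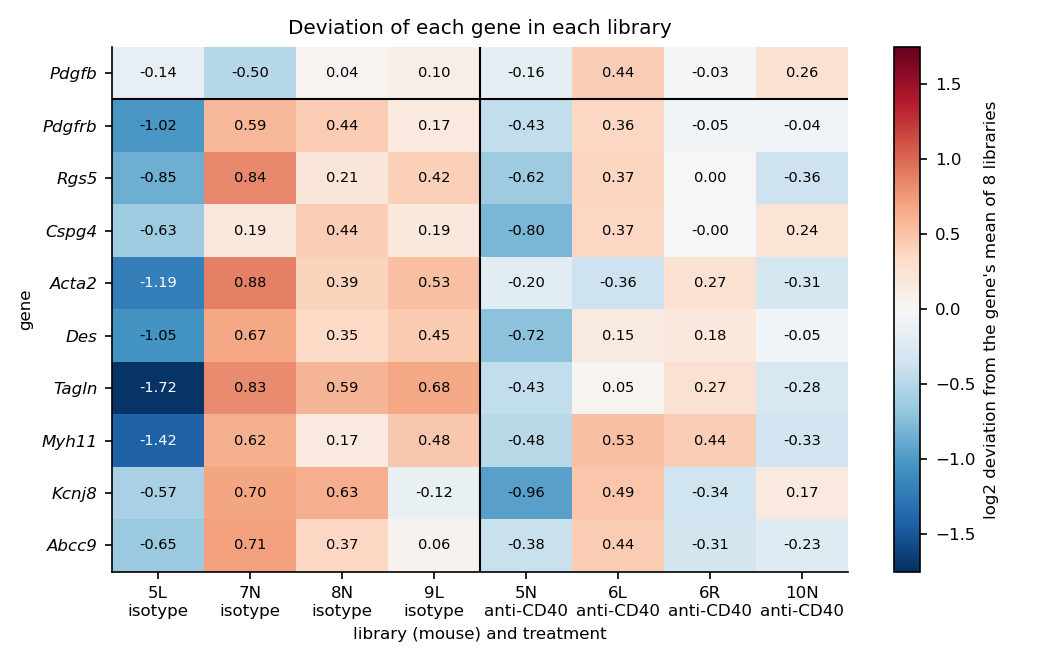
Log2 deviation of each gene in each library from the gene's mean over 8 libraries (red above, blue below), with isotype control libraries left and agonistic CD40 mAb libraries right of the vertical line. The 9 rows under Pdgfb share the blue column 5L, down to −1.72 for Tagln, and the red column 7N, while the row of Pdgfb runs from −0.50 in 7N to 0.44 in 6L.

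Over the 8 libraries the correlations of the mural-cell genes with each other were high and those with Pdgfb were lower. The 36 pairs of the 9 genes had a median Pearson r of 0.84 (0.49 to 0.95, on log2(value + 1)), and a median of 0.76 without 5L. The closest pairs were Acta2 with Tagln (0.95) and Des with Tagln (0.95), followed by Pdgfrb with Des (0.94) and Rgs5 with Des (0.94). Kcnj8 was closest to Cspg4 (0.89) and Abcc9 (0.88), and Acta2 with Kcnj8 was the loosest pair (0.49). Pdgfrb was near both sides, at 0.81 with Acta2 and 0.84 with Kcnj8, and highest with Des (0.94). Pdgfb had a median r of 0.03 with the 9 genes, from −0.32 with Acta2 to 0.42 with Cspg4, and without 5L a median of −0.17 (−0.71 to 0.38). These coefficients describe 8 libraries that share normalization and gate, and the correlation with the log2 of the reads per library had a median of −0.06 for the mural-cell genes and was 0.41 for Pdgfb.

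The genes whose pattern over the 8 libraries was most like that of Pdgfrb, among 12969 genes by Pearson r, were Aoc3, Pde1b, Vstm4, Epb41l1 and Tmem50a (0.98 to 0.99). Aoc3 had its lowest value in 5L, at 523 normalized reads, and its highest in 7N, at 1629.7. Des ranked 54 in this list, Abcc9 109, Tagln 111, Rgs5 133, Myh11 186, Cspg4 543, Kcnj8 633, Acta2 828 and Pdgfb 6720. For Acta2 they were Actg2, the γ-actin of smooth muscle, Tgfb3, Tbpl1, Fads3 and Lzic (0.97 to 0.98). Tagln ranked 8 for Acta2, Des 142, Myh11 356, Rgs5 425, Pdgfrb 495, Abcc9 1522, Cspg4 2919 and Kcnj8 3363. For Pdgfb the most alike genes were Tbkbp1, Nbeal2, Rgl2, Caskin2 and Acvrl1, the endothelial receptor ALK1 (0.96 to 0.97). With 8 libraries such lists are unstable, and by Spearman's correlation 3, 2 and 1 of the 5 were kept for Pdgfb, Pdgfrb and Acta2.

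Acta2 and Kcnj8 were the pair of mural-cell genes least alike over the libraries, and their starts are shown with that of Rgs5, the most abundant pericyte gene. RefSeq promoters on GRCm38.p6 (mm10) ran from 250 bases before to 50 bases after a start. They were used for 6 of the 10 genes: Rgs5, Cspg4, Acta2, Des, Kcnj8 and Abcc9. The promoters of the other genes were not searched, so the 6 do not show for which genes a promoter is on record. The 6 windows were searched for the CArG box, the site of serum response factor, on a pattern that reads the same on both strands. No window held the exact box, which occurs in 1.63% of the 32851 promoters searched. Allowing 1 C or G among its 6 inner bases, which 9.98% of promoters hold once or more and 0.822% hold at least 2 times, the window of Acta2 held 2 matches and the other 5 windows held none. The matches in Acta2 begin 84 and 34 bases before the start, and each is printed 5′ to 3′ with the match in capitals and 10 bases on either side. The first lies at chr19:34255438-34255467 and the second at chr19:34255388-34255417, both on the minus strand and inside the gene span that GENCODE annotates for Acta2.
Acta2 first match: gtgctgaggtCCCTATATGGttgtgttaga
Acta2 second match: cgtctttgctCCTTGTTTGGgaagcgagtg
The 250 bases before the start of Rgs5 (chr1:169655251-169655500, plus strand) and of Kcnj8 (chr6:142571615-142571864, minus strand), where no match was found, are printed in lower case.
Rgs5: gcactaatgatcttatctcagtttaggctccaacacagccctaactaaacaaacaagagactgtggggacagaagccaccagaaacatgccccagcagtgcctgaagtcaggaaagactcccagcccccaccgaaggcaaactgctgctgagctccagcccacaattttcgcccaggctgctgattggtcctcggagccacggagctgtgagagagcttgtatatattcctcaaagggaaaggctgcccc
Kcnj8: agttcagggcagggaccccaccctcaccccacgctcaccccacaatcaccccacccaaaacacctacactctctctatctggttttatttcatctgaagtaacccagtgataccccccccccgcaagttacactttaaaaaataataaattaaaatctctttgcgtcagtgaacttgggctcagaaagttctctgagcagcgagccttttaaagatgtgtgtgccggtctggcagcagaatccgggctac
A match is a sequence description and no measurement of binding.

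The difference depended on single libraries. The median log2 fold change of the 9 mural-cell genes, −0.21 with all libraries, was −0.05 without 7N, −0.05 without 5N, −0.10 without 9L and −0.13 without 8N, and 6 of the 9 were below 0 without 7N, without 5N or without 8N. Library 5L held the lowest isotype control value of all 9 mural-cell genes, so leaving it out must lower their fold changes. The calls without 5L are therefore no independent evidence of a lower level. Without 5L, all 9 mural-cell genes had a log2 fold change below 0, with a median of −0.56, against −0.01 for all genes tested, of which 52.1% were below 0. In this fit Tagln (ratio 0.582, log2 fold change −0.80, standard error 0.16), Acta2 (ratio 0.596, −0.75, standard error 0.17) and Rgs5 (ratio 0.653, −0.64, standard error 0.23) passed the threshold as lower, as did 0.945% of all genes tested. Pdgfrb (−0.44), Des (−0.60) and Abcc9 (−0.50) had an unadjusted limma p under 0.05 but a ratio above the limit. Kcnj8 (−0.56), Myh11 (−0.38) and Cspg4 (−0.32) had a larger p. None passed after adjustment, with limma adjusted p of 0.151 for Tagln, 0.264 for Acta2 and 0.999 for Rgs5, and the lowest adjusted p of the 10 genes in any other alternative was 0.965. All 4 libraries with agonistic CD40 mAb lay below the 3 others with isotype control for Acta2, Des and Tagln, as for 2.54% of all genes tested, and the exact permutation test gave p = 0.0571, 0.0857 and 0.0571. Without 7N the log2 fold changes of Acta2 and Tagln were −0.06 and 0.05. Pdgfb did not depend on 5L, with a log2 fold change of 0.25 without it.

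**Figure D4:**
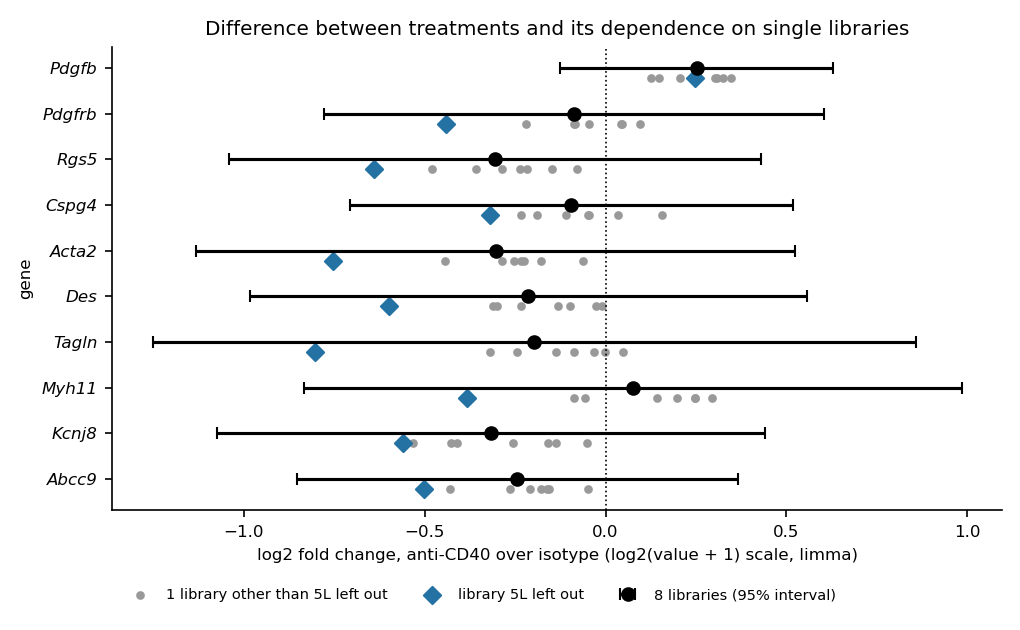
Log2 fold change of agonistic CD40 mAb over isotype control for each gene in limma, with its 95% interval (black), and the same when 1 library is left out (gray, or a blue diamond for 5L). The intervals of all 10 genes include 0, and leaving out 5L moves each mural-cell gene to the left, to −0.80 for Tagln, but not Pdgfb.

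Markers of other cells moved with 5L as well. Its summed melanoma markers, 101078 normalized reads, exceeded those of every other library (at most 65418), and its fibroblast markers, 104230, were the lowest (at least 145709 elsewhere). The summed level of the 9 mural-cell genes was 12881 in 5L, between 31552 and 42381 in the other isotype control libraries and between 17818 and 29619 with agonistic CD40 mAb. Over the 8 libraries the mural-cell genes had a median r of −0.67 with the summed melanoma markers, 0.55 with the summed fibroblast markers and 0.35 with the summed endothelial markers. Pdgfb had 0.63 with the endothelial markers and 0.06 with the fibroblast markers. Endothelial markers themselves summed to between 52744 and 72524 with isotype control and between 59593 and 86281 with agonistic CD40 mAb. The part of these cells in the differences was not tested.

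**Figure D5:**
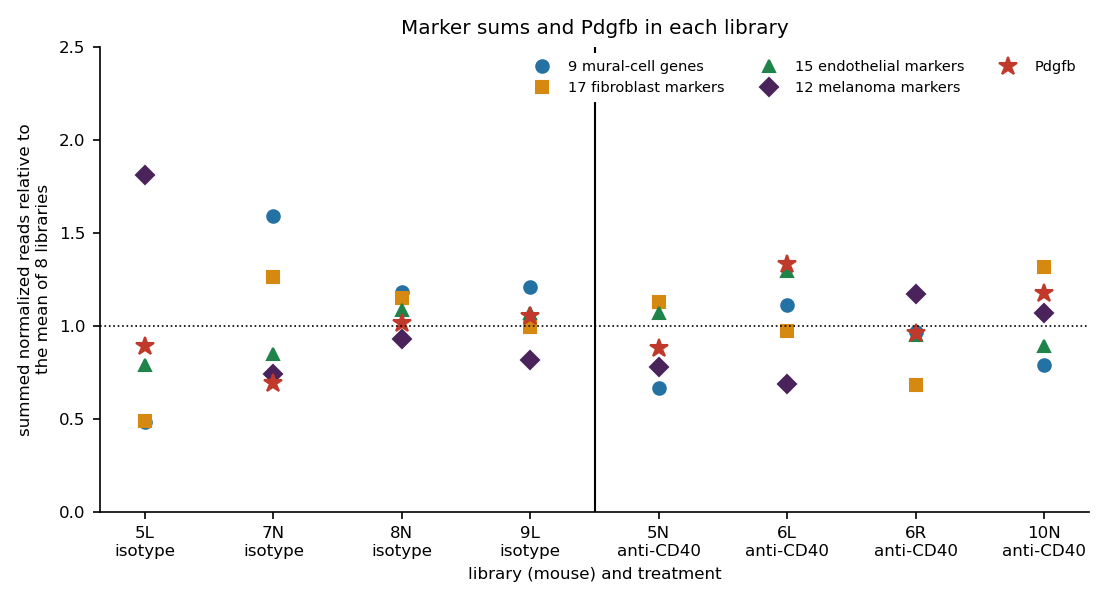
Summed normalized reads of 4 marker lists and the value of Pdgfb in each library, each relative to its own mean over 8 libraries. In 5L the melanoma sum is high and the mural and fibroblast sums are low, and in 7N the mural sum is the highest of the 8 while Pdgfb is the lowest.

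Values were also scaled to the summed endothelial markers of each library, which asks for mural RNA per endothelial RNA. This scaling, chosen after seeing the data, moved the median log2 fold change of all genes to −0.15. The mural-cell genes then had a median of −0.36, and none of the 10 genes passed the threshold. As a ratio to Pecam1, Rgs5 was 0.861 ± 0.224 after agonistic CD40 mAb and 1.33 ± 0.647 after isotype control (SD, n = 4 each; exact permutation test on the log2 ratio, p = 0.257). This ratio was 0.713 in 5L, while 7N (2.23), 8N (1.08) and 9L (1.28) lay above all libraries with agonistic CD40 mAb (at most 1.02). It was not tested without 5L. Pdgfb was 0.226 ± 0.0620 and 0.220 ± 0.0259 of Pecam1 (SD, n = 4 each; exact permutation test, p = 0.971).

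None of the other genes of the PDGF pathway passed the threshold. Of 22 further ligands, receptors and signaling genes, all were tested, 10 had a log2 fold change above 0 and 12 below, with a median of 0.00. Without 5L, 15 were below 0, the median was −0.06 and none passed, where 52.1% of all genes tested were below 0 and 0.945% passed as lower. Without each other library in turn, the median lay between −0.02 (without 6L) and 0.05 (without 7N). Lrp1, a co-receptor of PDGFR-β, had 4872 ± 1214 normalized reads after agonistic CD40 mAb and 4494 ± 999 after isotype control (SD, n = 4 each). Crk, an adapter, and Ptpn11, the phosphatase SHP2, stood at −0.03 and 0.00 on the log2 scale (standard errors 0.13 and 0.10).

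Lists of further mural-cell genes were examined in the same fits. Library 5L had the lowest sums of the pericyte list (22522 normalized reads) and the smooth-muscle list (36332). Their fits without 5L share the limit given above. Of 28 tested genes on a list of other pericyte genes, 18 had a log2 fold change below 0, with a median of −0.08, and none passed the threshold. Without 5L, 27 of the 28 were below 0, the median was −0.36, and Gucy1a3, a subunit of soluble guanylate cyclase, and Rgs4, a relative of Rgs5, passed as lower. In that fit 52.1% of all genes tested were below 0 and 0.945% passed as lower. The sign of the median of this list was not stable. It was 0.06 without 5N and 0.14 without 7N, and below 0 without each other library. The 3 most abundant genes of that list, Postn (periostin), Mcam (CD146) and Ednrb (endothelin receptor B), are also made by fibroblasts or endothelium and had log2 fold changes of −0.11, 0.03 and −0.06 with all libraries. Of 30 tested smooth-muscle genes and regulators, 18 were below 0, the median was −0.05 and none passed. Without 5L, 25 were below 0 with a median of −0.24, and Actg2, Tpm2 (tropomyosin), Casq2 (calsequestrin) and Itga8 (integrin α8) passed as lower, against the same 52.1% and 0.945% of all genes tested. The median of the smooth-muscle list was 0.03 without 7N and 0.02 without 9L, and below 0 without each other library. The 3 most abundant genes of the smooth-muscle list, Flna, Vcl and Cald1, had log2 fold changes of −0.05, −0.15 and −0.14 with all libraries. They encode the actin-binding proteins filamin A, vinculin and caldesmon.

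On the endothelial side, 19 genes for mural-cell recruitment and the shared basement membrane had a median log2 fold change of 0.04, and none passed the threshold. Col4a1, Col4a2 and Hspg2 (perlecan), with the largest means, had −0.10, 0.06 and 0.12 (standard errors 0.22, 0.20 and 0.27). Without 5L the median was −0.11, 12 of the 19 were below 0 and Ctgf, a matricellular protein gene, passed as lower at −0.70, where 52.1% of all genes tested were below 0 and 0.945% passed as lower. The median of these genes was also below 0 without 6L, at −0.04, and above 0 without each other library.

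The medians of the fibroblast and melanoma lists changed sign when 5L was left out. The 17 fibroblast markers had a median log2 fold change of 0.13 with all libraries, 5 of them below 0 and none past the threshold. Without 5L the median was −0.15, 14 of the 17 were below 0, against 52.1% of all genes tested, and Mfap5, a microfibril gene, passed as lower at −0.58, as did 0.945% of all genes tested. The collagen genes Col3a1, Col1a1 and Col1a2, the most abundant of the list, had 0.17, 0.11 and 0.13 with all libraries. The 12 melanoma markers went the other way, from a median of −0.12 (11 below 0) to 0.18 (2 below 0) without 5L, with none past the threshold in either fit. Their median was also above 0 without 6L, at 0.01. Tyrp1, Dct and Pmel, which serve pigment synthesis, had −0.29, −0.07 and −0.07 with all libraries. The 15 endothelial markers had a median of 0.13 with 1 below 0, and 0.03 with 6 below 0 without 5L, again with none past the threshold. Their median was 0.01 without 6L. Cdh5, Pecam1 and Eng (endoglin) had 0.11, 0.24 and 0.20 with all libraries. Of 15 tested leukocyte and macrophage markers, 10 were above 0 and 5 below, with a median of 0.14, and without 5L 5 were below 0 with a median of 0.16. The median was not stable, at 0.49 without 5N and 0.44 without the filter on low values. Mrc1, a mannose receptor of macrophages, passed as higher, as did 1.28% of all genes, with 39.0 normalized reads against 22.4 (limma adjusted p = 1.00). The most abundant, Lcp1, Lyz2 and Cd68, had 0.10, 0.79 and −0.08.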

How the data were processed

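RNA of CD45-CD31+ cells from 8 tumors was analyzed, with 1 library per tumor. Per the labels and the methods, the authors aligned reads to mm10 with TopHat2 (Bowtie2 2.2.1), counted them per gene with Partek software (6.6) and divided the counts by DESeq2 size factors. The deposited signal is 1 value per gene and library. Flooring, trimming and a harvest day correction named in the methods are not visible in it. Steps between low values gave the reads, and 99.9% of values came out whole to within 0.1 read. Read numbers speak of counting error alone.

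Values were tested as log2(value + 1) with limma (3.58.1, R 4.3.3, variance trend, treatment as the only term) over 12969 genes with a larger group mean above 10, with Benjamini-Hochberg adjustment. The limits on fold and unadjusted p were the study's, which applied them to an analysis of variance. Single genes also had an exact two-sided permutation test over 70 assignments. The fit was tested on simulated data. Alternatives were other pseudocounts, filters and scalings, no trend, edgeR (4.0.16) and DESeq2 (1.42.0) on the recovered reads, and leaving out each library. The test on recovered reads with edgeR called 150 genes higher and 47 lower. Positions and lengths are from GENCODE M21, matched for all 10 genes, and promoters from RefSeq. No protein sequences were used. The 10 genes and the lists were chosen with earlier results of these data known. Named genes are the 10, the 3 of each list with the largest mean, those past the threshold with all libraries or without 5L, markers at 0 and the 5 most alike. Pcsk7 was added after its values were seen.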

Additional observations from a re-analysis of the deposited data

Results flagged for a closer look

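Abcc9 had 3676 normalized reads in library 6L, and the gap to the next of the 4 libraries with agonistic CD40 mAb (2309) was a larger part of the group's range than Dixon's 95% limit allows. It was the only one of 20 groups of 4 so flagged, the 10 genes in each treatment group, where chance alone flags about 1 in 20. Without 6L, the log2 fold change of Abcc9 was −0.43. Library 5L was not flagged by this measure for any gene.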

How the results depend on the processing

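The 18 alternatives gave 180 log2 fold changes of the 10 genes, of which 165 kept their direction and their side of the threshold. No gene of the 10 passed it in any alternative except without library 5L. Myh11 reversed under edgeR (−0.043) and DESeq2 (−0.039). It was also below 0 with scaling to endothelial markers (−0.075), but that scaling moved the median of all genes to −0.15, so this sign is not particular to Myh11. Leaving out 1 library in turn gave −0.38 to 0.30 for Myh11, −0.44 to 0.094 for Pdgfrb, −0.32 to 0.16 for Cspg4 and −0.80 to 0.047 for Tagln, which include reversals. It gave −0.64 to −0.078 for Rgs5 and −0.75 to −0.061 for Acta2, which with Tagln passed without 5L. The cause was not tested. Over all genes, 166 were higher and 31 lower. Without the filter on low values, where more genes were tested, these were 331 and 93. Lower calls numbered 13 with means above 50, 57 without the variance trend, 47 under edgeR and 58 under DESeq2. Calls were 149 higher and 63 lower after quantile normalization, and 122 and 53 with endothelial scaling. Leaving out 1 library gave 124 to 234 higher and 27 to 123 lower calls, with 123 without 5L and 52 without 9L. By transcript length the levels of Pdgfb and Cspg4 were 740 and 126 per kilobase. Of the 5 genes most like Pdgfb, Pdgfrb and Acta2, 1, 1 and 2 were kept on deviations from group means. No paired analysis was possible because the replicate numbers only follow the order of the libraries, and nothing in the labels says what the mouse numbers mean, of which 5N and 5L share 1, or gives the harvest day. With 4 libraries per group and their spread, small differences could not be resolved. Depth differed 21.9-fold between libraries, and its part in this was not tested.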

Other observations

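Within a library, the ratio of Pdgfrb to Pdgfra, the receptor typical of fibroblasts, was 2.34 ± 0.8996 after agonistic CD40 mAb and 3.37 ± 0.682 after isotype control (SD, n = 4 each; exact permutation test on the log2 ratio, p = 0.171). It was lowest in 5N, at 1.16, and 3.74 in 5L. The ratio of Acta2 to Rgs5 lay between 0.287 (6L) and 0.640 (5N).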
